A study of Homo sapiens with 19 samples.

Results

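The genes described here code for 10 extracellular proteins that sit on or beside elastic fibres. They are the fibulins EFEMP1, EFEMP2, FBLN1 and FBLN5, the matrilin MATN2, the fibrillins FBN1 and FBN2, and the latent TGF-beta binding proteins LTBP1, LTBP2 and LTBP3. They were chosen by name, with earlier results of these data known, as the probe sets annotated to 1 of these genes and to no other. That rule found 19 of the 22283 probe sets of the array, and the 10 genes were among 11962 named genes. All 10 passed a filter on low signals and were among 9554 genes tested, although FBN2 passed it through 2 arrays only.

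Fibrillins polymerise into microfibrils, the scaffold on which elastin is laid down. Short fibulins bind elastin and bring it together with the lysyl oxidases that cross-link it, and matrilins act as adaptors between other matrix proteins. TGF-beta leaves most cells bound to its own propeptide, and that latent complex is disulphide-linked to an LTBP, which in turn attaches to fibrillin and fibronectin, so these proteins determine where TGF-beta is stored. In breast tissue they are made mainly by stromal cells, and in bone the matrix store of TGF-beta is released when osteoclasts resorb it.

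Messenger RNA was measured on 19 oligonucleotide arrays, 1 array for each of 19 lines. All trace back to the human breast cancer line MDA-MB-231, which is of mesenchymal character. The array of the parental line stood alone. The other groups were the weakly bone-metastatic lines 2293, 2295 and 2296, the strongly bone-metastatic lines 1833, 2274, 2268 and 2269, the weakly lung-metastatic lines SCP21, SCP6 and SCP26, and the strongly lung-metastatic lines 4142, 4173, 4175 and 4180. From line 1833, and likewise from line 4175, came a pair of sublines, the first modal-ploid and the second hyper-ploid, which gave 2 arrays for each ploidy. Cells were collected in culture before they were confluent, and no agent was compared, per the labels. Line 2296 has that number in its title and 2297 in its other labels, and its group is the same under either name. With 1 array per line, the p-values measure the spread between related lines of 1 parental origin and leave out the spread of repeated cultures.

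The deposited values were ratios, divided separately in a first set of 10 arrays (the parental line, the bone lines and the 1833 ploidy pair) and a second set of 9 arrays (the lung lines and the 4175 ploidy pair). Signals were recovered from the ratios and scaled so that every array had a median signal of 142.9. Values below are these scaled signals. Differences are on the log2(signal + 16) scale, which understates the change of dim genes. A signal above the 40th percentile of its own array was counted as above the floor, and the floor lay between 71.6 and 93.8. Before scaling, the 4 ploidy arrays had median signals of 89.0 to 97.4 and the other 15 had 123.5 to 162.7. The mean log2 signal of the 14 spike-in probe sets was 10.48 to 10.85 on the arrays of the bone lines, 9.33 to 10.08 on those of the lung lines and 8.62 to 8.86 on those of the ploidy sublines, and strong and weak lines of the same organ overlapped in it. Array handling and target organ therefore cannot be told apart, nor can handling and the step from a line to its ploidy sublines. Of 10 mesenchymal markers, 8 were above the floor on all 19 arrays, VIM, ZEB1, AXL and CD44 among them. GATA3, KRT8, KRT18, KRT19, EPCAM and XBP1 of 12 luminal markers were so too, and PGR was at or below the floor on every array.

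EFEMP1 (fibulin-3), a short fibulin, separated strong from weak lines in opposite directions for the 2 organs. Its probe set 201842_s_at gave signals of 675, 779 and 376 in the weakly bone-metastatic lines 2293, 2295 and 2296. The strongly bone-metastatic lines 1833, 2274, 2268 and 2269 gave 3063, 3331, 3234 and 3102. All 4 strong lines lay above all 3 weak lines and were within a narrow band. In the lung lines the order turned. The weakly lung-metastatic lines SCP21, SCP6 and SCP26 gave 1802, 3080 and 2167, and the strongly lung-metastatic lines 4142, 4173, 4175 and 4180 gave 280, 506, 355 and 691. Every strong lung line was below every weak one. EFEMP1 was higher by 2.42 log2 units in strong than in weak bone lines (SE 0.30, limma adjusted p = 0.000281). It was lower in strong lung lines, with a difference of -2.36 log2 units (SE 0.30, limma adjusted p = 0.000437). The second probe set of the gene, 201843_s_at, gave differences of 1.65 and -2.09 and was called in both comparisons. The parental array, at 4167, held the highest EFEMP1 signal of all 19 arrays.

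MATN2, the matrilin, moved in the same 2 directions as EFEMP1. Its signals were 48.4, 66.2 and 86.0 in the weakly bone-metastatic lines 2293, 2295 and 2296, all at or below the floor of their arrays. They were 465, 481, 240 and 219 in the strong bone lines 1833, 2274, 2268 and 2269. The groups did not overlap, and the 2 strong lines with the higher signals were 1833 and 2274. Signals were 455, 341 and 1513 in the weakly lung-metastatic lines SCP21, SCP6 and SCP26. They were 72.5, 84.2, 35.8 and 62.5 in the strong lung lines 4142, 4173, 4175 and 4180, all at or below the floor. SCP26 stood above every other array, and the parental array, at 1122, was next. MATN2 was at least 3.38-fold higher in strong bone lines (difference 2.09, SE 0.44, limma adjusted p = 0.00902). It was at least 5.96-fold lower in strong lung lines (difference -3.04, SE 0.44, limma adjusted p = 0.000871). Both bounds set the brighter group against the floor of the dimmer group's arrays.

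None of the other fibulins was called between strong and weak lines at the level of the gene. EFEMP2 (fibulin-4), which elastic fibre assembly and collagen cross-linking need, lay between 110.0 and 247 on all 19 arrays. Its differences were -0.05 for bone (limma adjusted p = 0.926) and 0.09 for lung (limma adjusted p = 0.849). Its spread within the array sets, an SD of 0.319 on the log2 scale, was below that of the median gene (0.396). FBLN5, a short fibulin that binds elastin and integrins, was above the floor on 6 of 19 arrays. It gave 104.0, 98.8 and 92.6 in the weak bone lines 2293, 2295 and 2296, and 24.4, 20.2, 90.2 and 30.0 in the strong bone lines 1833, 2274, 2268 and 2269. The groups did not overlap, although 2268 was close to the weak lines, and the difference of -1.15 did not pass the threshold (SE 0.47, limma adjusted p = 0.139). In the lung lines FBLN5 was at 8.33 to 75.5 in the weak and 11.6 to 65.1 in the strong group, all at or below the floor.

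FBLN1, the long fibulin of basement membranes and elastic fibres, depended on the probe set. The set 202995_s_at, which has the highest mean of the 5 and stands for the gene, gave 156, 169 and 109 in the weak lung lines SCP21, SCP6 and SCP26. It gave 139, 180, 246 and 144 in the strong lung lines 4142, 4173, 4175 and 4180, which overlapped the weak ones (difference 0.25, limma adjusted p = 0.628). Over the bone lines the groups overlapped too (difference -0.32, limma adjusted p = 0.499). The set 201787_at gave 21.4, 70.9 and 30.5 in the same weak lung lines and 142, 166, 323 and 142 in the strong ones, without overlap. The weak lung lines were at or below the floor, and set against it the 201787_at signal of the strong lines was at least 1.96-fold higher. When each of 14360 probe sets was tested by itself, the 201787_at signal was higher in strong lung lines by 1.89 log2 units (SE 0.348, limma adjusted p = 0.00442). Its signals in all 7 bone lines, 11.7 to 40.5, were at or below the floor, so no bone difference is given for it. FBLN1 is spliced at its end into several forms, and the probe positions were not used here, so which forms each set reads is not given. The sets 207834_at, 207835_at and 202994_s_at were called in neither comparison.

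**Figure D1:**
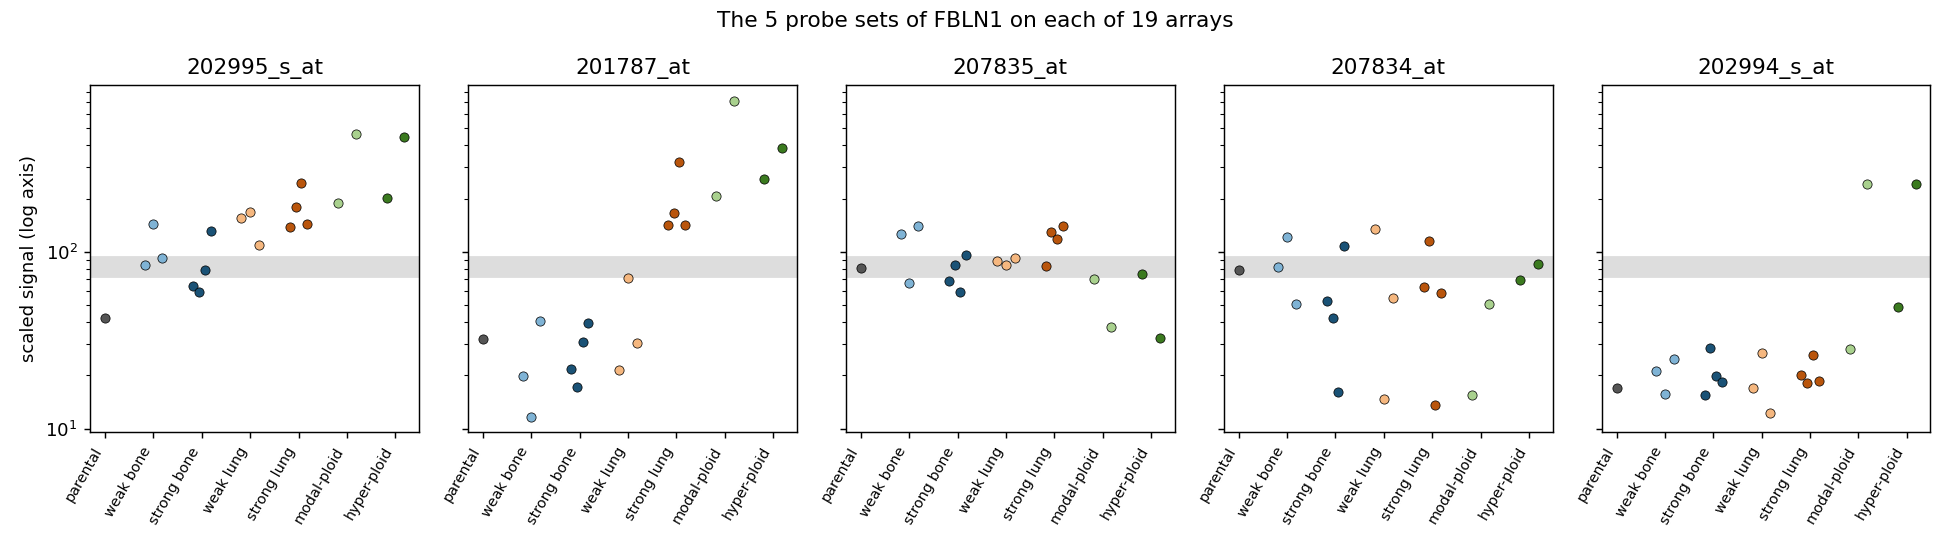
Scaled signal (log axis) of the 5 FBLN1 probe sets by group, with 1 point per array and a grey band over the range of the arrays' floors. In 201787_at the 4 strong lung lines sit at 142 to 323, above the 3 weak lung lines at 21.4 to 70.9, whereas in 202995_s_at both groups lie in 1 range.

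FBN1, the main fibrillin of microfibrils, was the only member with a positive difference in both organs in the reported fit, and 1 of the 2 differences was called. Signals were 186, 265 and 182 in the weak bone lines 2293, 2295 and 2296 and 468, 568, 342 and 298 in the strong bone lines 1833, 2274, 2268 and 2269. The strong group lay above the weak group with a small gap between 2295 and 2269. FBN1 was higher by 0.91 log2 units in the strong bone lines (SE 0.24, limma adjusted p = 0.0231). That call was lost when 1 of the lines 2293, 2296, 1833 or 2274 was left out, with adjusted p of 0.0904, 0.0926, 0.0639 and 0.0642 by limma, with the mean over probe sets (limma adjusted p = 0.107) and in a fit over the 7 bone lines alone (limma adjusted p = 0.055). In the lung lines FBN1 was 190.0, 244 and 231 in SCP21, SCP6 and SCP26 and 334, 437, 420 and 288 in 4142, 4173, 4175 and 4180. These groups did not overlap either, and the difference was 0.69 (SE 0.24, limma adjusted p = 0.0917). It was past the threshold in 2 of 17 alternatives, quantile normalisation among them (limma adjusted p = 0.0275). Over the alternatives the limma adjusted p reached 0.338. The second set, 202765_s_at, was at or below the floor in all 6 weak lines and was not called. FBN2, the fibrillin of developing tissue, was above the floor only in the weak bone lines 2295 and 2296, at 101 and 105. Its bone difference, with the strong lines all at or below the floor, was not called (limma adjusted p = 0.169), and its lung lines were all at or below the floor.

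LTBP1, which holds latent TGF-beta and has a long and a short form made from separate start sites, was higher in the strong lines of 1 organ. RefSeq lists 3 upstream windows for it (GRCh38.p14, plus strand, the 250 bases before each start), of which the third overlaps the second and is not printed. The other 2 are printed because LTBP1 is the member of the TGF-beta binding class that differed in the lung lines. Capitals mark CAGAC or its reverse complement GTCTG, the core that SMAD proteins bind.
LTBP1, chr2:32946703-32946952: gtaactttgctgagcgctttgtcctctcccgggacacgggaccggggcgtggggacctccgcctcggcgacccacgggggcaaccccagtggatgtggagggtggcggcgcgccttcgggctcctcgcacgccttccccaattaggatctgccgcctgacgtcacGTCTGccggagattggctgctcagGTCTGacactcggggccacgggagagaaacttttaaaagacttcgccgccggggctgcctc
LTBP1, chr2:33134119-33134368: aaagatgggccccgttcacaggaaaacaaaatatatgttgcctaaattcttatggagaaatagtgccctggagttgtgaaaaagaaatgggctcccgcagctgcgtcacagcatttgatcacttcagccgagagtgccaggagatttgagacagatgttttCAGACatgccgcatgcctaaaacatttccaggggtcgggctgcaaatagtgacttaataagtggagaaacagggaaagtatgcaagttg
The first window held 2 matches, and each of the others held 1. Any match of these 5 letters was found in 38% of 35116 RefSeq promoter windows of the same length, and in 6 of the 12 windows of the 8 members that the table lists, so a match is near the background share. TGANTCA, the AP-1 motif searched on both strands, was in 0 of the 12 windows and in 6.57% of all windows. The array does not show which start site was used.

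The signals of LTBP1 in the weak lung lines SCP21, SCP6 and SCP26 were 227, 432 and 233. The strong lung lines 4142, 4173, 4175 and 4180 gave 743, 914, 858 and 1511. All strong lines lay above all weak ones. LTBP1 was higher by 1.72 log2 units in strong lung lines (SE 0.30, limma adjusted p = 0.00321). The bone lines were at 1262, 1369 and 1684 in the weak group (2293, 2295, 2296) and 916, 1194, 1615 and 758 in the strong group (1833, 2274, 2268, 2269), which overlapped. Their difference was -0.40 (SE 0.30, limma adjusted p = 0.442). The second set, 202728_s_at, was higher in strong lung lines by 2.16 (SE 0.516, limma adjusted p = 0.0202 over 14360 probe sets), and that call was lost in 4 of 7 fits with 1 lung line left out. In that set SCP21 and SCP26, both at 34.3, were below the floor, so the size is set partly by background. SCP6, at 282, was next to the lowest strong lung line, 4142, at 284.

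LTBP2, an LTBP relative that binds fibrillin and does not carry latent TGF-beta, separated the bone lines. It gave 562, 441 and 468 in the weak lines 2293, 2295 and 2296 and 175, 162, 145 and 263 in the strong lines 1833, 2274, 2268 and 2269. Every strong line was below every weak line. LTBP2 fell by 1.35 log2 units from weak to strong bone lines (SE 0.23, limma adjusted p = 0.00279). In the lung lines it was at 213 to 405 in the weak and 222 to 305 in the strong group, which overlapped (difference -0.18, limma adjusted p = 0.704).

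LTBP3, which binds latent TGF-beta and is needed for normal bone and tooth formation, lay near the floor and had opposite signs in the 2 organs. It gave 149, 112 and 227 in the weak bone lines 2293, 2295 and 2296. The strong bone lines 1833, 2274, 2268 and 2269 gave 70.5, 10.3, 35.0 and 42.3, all at or below the floor. The weak lung lines SCP21, SCP6 and SCP26 gave 4.07, 108 and 90.5, and the strong lung lines 4142, 4173, 4175 and 4180 gave 125, 250, 220 and 171. Strong and weak lines did not overlap in either organ. Neither difference passed the threshold, at -1.76 for bone (SE 0.55, limma adjusted p = 0.0522) and 1.65 for lung (SE 0.55, limma adjusted p = 0.079). The weak lung lines SCP21 and SCP26 were at or below the floor, and without SCP21 the lung difference fell to 0.81. Set against the floor, LTBP3 was at least 1.71-fold lower in strong bone lines.

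**Figure D2:**
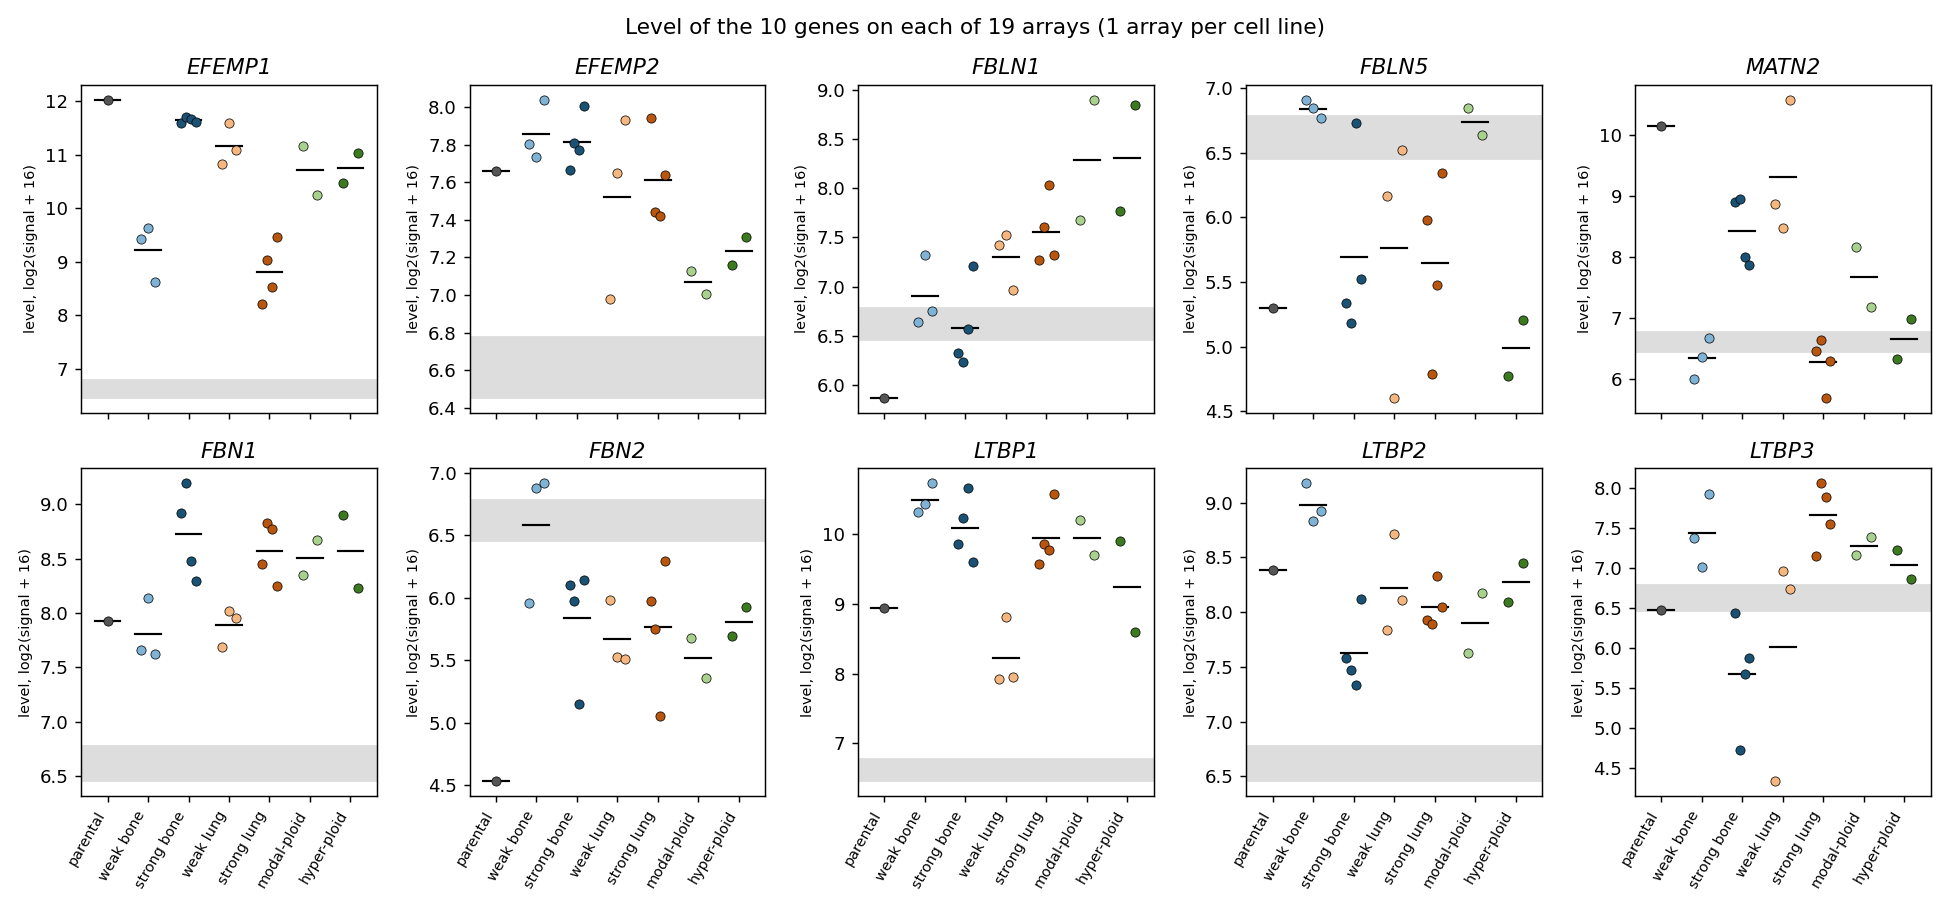
Level of the 10 genes, log2(scaled signal + 16), on every array by group, with 1 point per line, a bar at each group's mean and a grey band over the range of the arrays' floors; each panel has its own axis. For EFEMP1 and MATN2 the strong bone lines lie above the weak ones and the strong lung lines below the weak ones.

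By gene, 4 of the 10 members were called in the bone comparison, against 11.4% of all genes tested. The members were chosen with earlier results of these data known. Counts of members beside such shares, here and below, are therefore a description and not a test. EFEMP1, MATN2 and FBN1 were higher in strong lines, as were 6.66% of all genes, and LTBP2 was lower, as were 4.74%. The median size of a difference was 1.03 log2 units over the members and 0.319 over all genes, and the members' median signed difference was -0.362 against 0.0103. Strong and weak bone lines did not overlap for 6 members, as against 27.5% of all genes. Between strong and weak lung lines 3 of 10 members passed, against 8.88% of all genes. LTBP1 was higher, as were 3.37% of all genes, and EFEMP1 and MATN2 were lower, as were 5.51%. The median size there was 0.47 over the members and 0.302 over all genes, and 5 members did not overlap, against 19.7% of all genes.

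The difference between the bone and the lung contrast was tested as an interaction, with each contrast taken inside its own array set. It passed the threshold for 5 of 10 members, against 11.7% of all genes. EFEMP1 differed by 4.78 log2 units between organs (SE 0.43, limma adjusted p = 3.24e-05) and MATN2 by 5.12 (SE 0.62, limma adjusted p = 0.000212), both higher for bone, as were 6.95% of all genes. The 3 LTBP genes differed the other way, as did 4.77% of all genes, with -2.12 for LTBP1 (SE 0.43, limma adjusted p = 0.00628), -1.17 for LTBP2 (SE 0.33, limma adjusted p = 0.0351) and -3.41 for LTBP3 (SE 0.77, limma adjusted p = 0.0121). The LTBP2 value passed in 12 of 23 alternative fits, and the others passed in all 23. With probe sets tested singly, the second EFEMP1 set gave 3.74 (limma adjusted p = 0.000189). The second LTBP1 set gave -2.002 and was not called (SE 0.73, limma adjusted p = 0.0958). The FBLN1 set 201787_at, with bone and weak lung lines at or below the floor, gave -1.74 (limma adjusted p = 0.0357). No bone difference was measured for this set, so that value rests on its lung difference and does not compare the organs. The set was called in 5 of 14 fits with 1 line left out. For EFEMP2, FBLN1, FBLN5, FBN1 and FBN2 the interaction was not called, with limma adjusted p from 0.279 to 0.824. FBN1 differed by 0.23 between organs (SE 0.33). The MATN2, LTBP3, FBN2 and FBLN5 values include groups at or below the floor, which enter at their measured signals. The size of these 4 differences is therefore set partly by background.

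**Figure D3:**
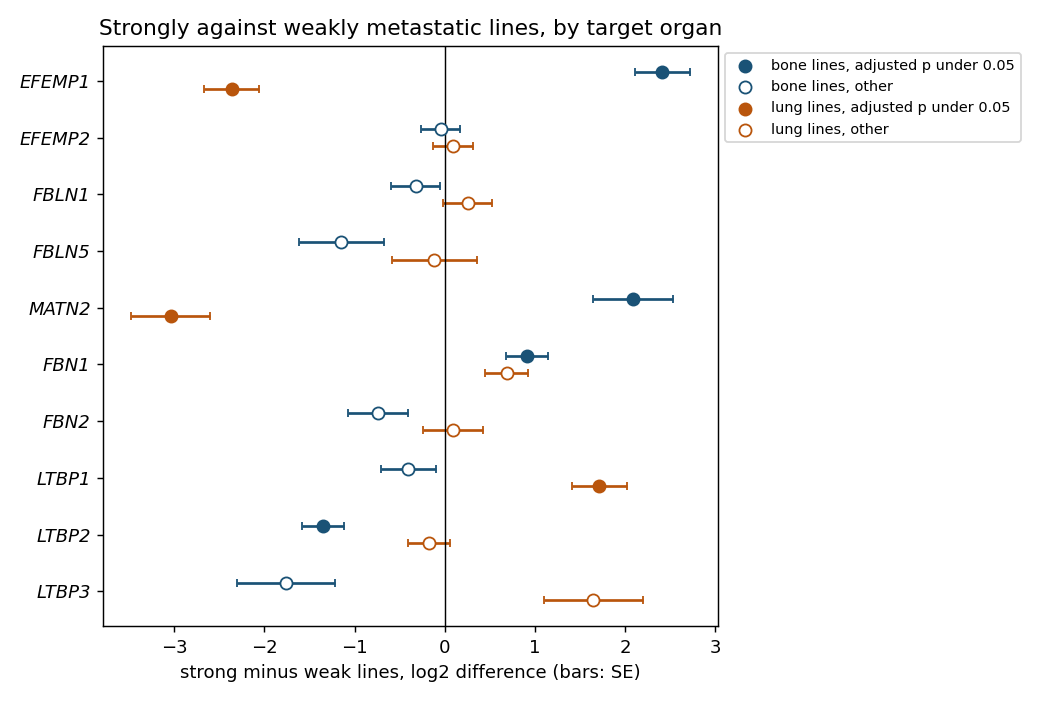
Strong minus weak difference of each gene on the log2(signal + 16) scale, for bone and for lung lines, with bars of 1 SE from the limma fit and filled points where the adjusted p was under 0.05. MATN2, LTBP3, FBN2 and FBLN5 include groups at or below the floor, and for FBN2 and FBLN5 both lung groups are. EFEMP1 (2.42 and -2.36) and MATN2 (2.09 and -3.04) lie on opposite sides of 0 in the 2 organs, and LTBP3 (-1.76 and 1.65) lies the other way round.

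The summed signals of markers of other cell types differed between the same groups, although few genes of each list were called. They are given here because elastic-fibre genes are stromal genes. The summed signal of 12 fibroblast markers was 2480 to 2880 in weak bone lines and 1548 to 2021 in strong bone lines. It was 1497 to 2050 in weak lung lines and 2313 to 2906 in strong lung lines. LUM, PDGFRA and FAP were at or below the floor on all 19 arrays. The 8 tested fibroblast markers had median differences of -0.047 for bone and 0.115 for lung. Of them COL6A3 was called lower for bone, and COL6A3 and COL1A1 were called higher for lung. The sum of the 10 leukocyte markers on the array was 8156 to 8311 in weak and 2567 to 3942 in strong bone lines, and 1883 to 2444 in weak and 6387 to 7198 in strong lung lines, and most of it was LAPTM5. PTPRC and TYROBP were at or below the floor on every array. The 8 tested leukocyte markers had median differences of -0.718 for bone and 0.396 for lung. LAPTM5 and HCLS1 were called lower for bone, and LAPTM5 and ITGB2 higher for lung. The 7 endothelial markers summed to 590 to 953 in weak and 394 to 546 in strong bone lines. Their sums were 280 to 410 in weak and 530 to 771 in strong lung lines. CDH5, VWF and CLDN5 were at or below the floor throughout. The 4 tested endothelial markers had median differences of 0.0417 for bone and 0.541 for lung. PECAM1 was called lower for bone, and ENG and PECAM1 higher for lung. All arrays were of cultured lines of MDA-MB-231 origin, and no tissue was measured. Whether all cells of a line or some of them hold these transcripts cannot be told from bulk RNA. The part of these markers in the members' differences was not tested.

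The bone lines were also set against the parental array, which has no replicate, so these values carry no test. The mean EFEMP1 level of the weak bone lines was 2.80 log2 units below the parental level (-2.80), and that of the strong bone lines was 0.39 below it (-0.39). The weak bone lines were at or below the floor for MATN2, which was at least 11.1-fold lower there than in the parental line, and the strong bone lines were at -1.72. LTBP1 was above the parental level in both groups, by 1.55 and 1.15. For LTBP2 the 2 groups lay on either side, with 0.59 in weak and -0.76 in strong lines. LTBP3, at or below the floor in the parental line and in all 4 strong bone lines, was at least 1.82-fold higher in the weak bone lines than in the parental line. FBN1 was at -0.12 in weak and 0.80 in strong lines. FBN2, FBLN5 and the FBLN1 set 202995_s_at, at 7.13, 23.4 and 42.4 in the parental line, were below the floor there.

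The ploidy comparison had 1 modal-ploid and 1 hyper-ploid subline per line of origin. No member was called, and of all genes 0.0105% (1 gene) was called by limma. Unadjusted p-values were under 0.05 for 3 members and for 503 of the 9554 genes. In the 1833 pair FBLN5 gave 99.0 (modal-ploid) and 11.4 (hyper-ploid), and in the 4175 pair 83.2 and 21.0. Both hyper-ploid signals were below the floor and both modal-ploid signals just above the floor of their own arrays. In the 1833 pair FBLN5 was at least 1.22-fold lower in the hyper-ploid subline. No bound holds for the 4175 pair, in which the modal-ploid signal was below the hyper-ploid array's floor of 84.1. Over both pairs FBLN5 was not called (limma adjusted p = 0.261). MATN2 gave 272 and 65.0 in the 1833 pair and 130 and 110 in the 4175 pair, with the hyper-ploid 1833 subline at or below the floor (limma adjusted p = 0.687). In the 1833 pair it was at least 3.05-fold lower in the hyper-ploid subline. LTBP1 gave 1158 and 937 in the 1833 pair and 816 and 373 in the 4175 pair (difference -0.70, SE 0.29, limma adjusted p = 0.898). EFEMP1 went in opposite directions, from 2283 to 1405 in the 1833 pair and from 1202 to 2079 in the 4175 pair, and FBN1 did so too, with 0.55 and -0.43. Of all genes, 3.29% differed by over 2-fold in the 1833 pair and 5.14% in the 4175 pair.

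**Figure D4:**
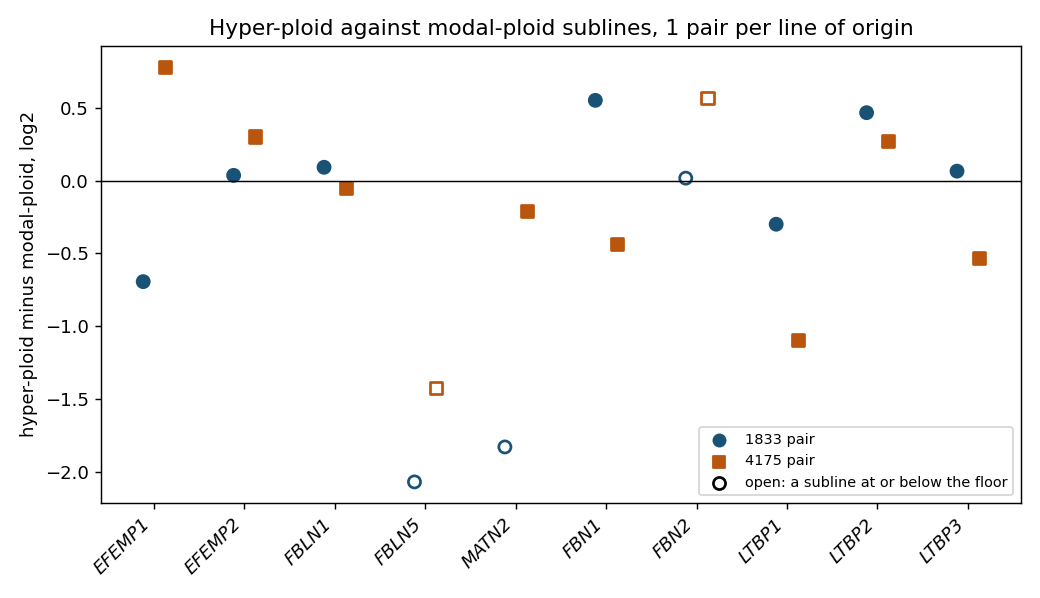
Hyper-ploid minus modal-ploid difference (log2) of the 10 genes, 1 circle for the 1833 pair and 1 square for the 4175 pair, with no error because each is 1 array against 1 array. Open symbols have a subline at or below the floor, so that their height is set partly by background, as for FBLN5 in both pairs. EFEMP1 is at -0.69 in 1833 and 0.78 in 4175.

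The ploidy sublines also differed from the lines they came from, in values with no replicate and with array handling that cannot be told apart. Both 4175 sublines had more EFEMP1 than line 4175, by 1.72 log2 units (modal-ploid) and 2.50 (hyper-ploid), and MATN2, at or below the floor in line 4175, was at least 1.38-fold and 1.19-fold higher in them. In the 1833 sublines EFEMP1 differed by -0.42 and -1.12 from line 1833. MATN2 differed by -0.74 in the modal-ploid subline and was at least 5.10-fold lower in the hyper-ploid subline, where it was at or below the floor. Between 11.9% and 13.8% of all genes differed by over 2-fold in such a comparison. The FBLN1 probe sets disagreed. The set 202995_s_at, at or below the floor in line 1833, was at least 2.02-fold and 2.15-fold higher in its modal-ploid and hyper-ploid sublines, and differed by 0.87 and 0.82 log2 units between the 4175 sublines and line 4175. The set 201787_at, also at or below the floor in line 1833, was at least 2.20-fold and 2.71-fold higher there, and differed by 1.11 and 0.24 in 4175. The set 202994_s_at was at or below the floor in the 1833 lines and at least 2.43-fold and 2.44-fold higher in the 4175 sublines. The set 207835_at went the other way in 4175, at least 1.47-fold and 1.33-fold lower in the sublines, and was at or below the floor in the 1833 lines. The set 207834_at was at or below the floor in all of these arrays but the hyper-ploid 4175 subline.

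Other genes of elastic fibres and of the latent TGF-beta system were taken from lists. Of 15 tested elastic-fibre partners, 1 was called higher and 1 lower between strong and weak bone lines. LOX, a lysyl oxidase that cross-links elastin and collagen, was higher by 1.58 (SE 0.32, limma adjusted p = 0.00752), and the fibronectin gene FN1 had a difference of -2.001 (SE 0.46, limma adjusted p = 0.013), a call lost without line 2295 (limma adjusted p = 0.0524). In strong lung lines MFAP2, a microfibril protein that binds fibrillin, was higher by 2.14 (SE 0.23, limma adjusted p = 0.000128), and no partner was lower. The interaction was called for all 3, at 1.83 for LOX, -3.02 for FN1 and -2.04 for MFAP2. LTBP4, the remaining LTBP, was not called (0.63 for bone, limma adjusted p = 0.186).

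Of 25 tested latent TGF-beta ligands, activators, receptors and SMADs, 4 were higher and 1 was lower in strong than in weak bone lines. THBS1, the thrombospondin that activates latent TGF-beta, was higher by 1.43 (SE 0.31, limma adjusted p = 0.01) and the ligand TGFB2 by 1.11 (SE 0.25, limma adjusted p = 0.0119), the latter lost without line 2293 (limma adjusted p = 0.0519). The signal transducer SMAD2 was higher by 1.24 (SE 0.19, limma adjusted p = 0.0014). The gene called lower was SMAD3, at -1.035 (SE 0.208, limma adjusted p = 0.00713). Its call was lost with the mean over probe sets (limma adjusted p = 0.334). In lung lines 2 were higher and 1 was lower. SMAD6, at or below the floor in the weak lung lines, was at least 1.11-fold higher (limma adjusted p = 0.0132). ENG was higher by 1.48 (SE 0.348, limma adjusted p = 0.0171), a call lost without SCP21 (limma adjusted p = 0.0548). SMAD2 had a difference of -1.16 (SE 0.19, limma adjusted p = 0.00218), and its interaction was 2.40 (SE 0.27, limma adjusted p = 0.000159). The interaction was also called for SMAD4, at 1.57 (SE 0.249, limma adjusted p = 0.00127). By interaction, 3 genes of this list were called higher for bone and 2 lower. The part of the chromosome-wide shifts described at the end in these differences was not tested. The ligand TGFB1 was called in neither organ (-0.33 for bone, limma adjusted p = 0.467, and -0.17 for lung, limma adjusted p = 0.751).

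Of 21 tested TGF-beta response genes, LTBP2 included, 3 were higher and 4 lower in strong bone lines, and 8 were higher and 1 lower in strong lung lines. The list's median difference was 0.0637 for bone and 0.826 for lung. The cytokine gene IL11 was higher by 3.52 in strong bone lines (SE 0.63, limma adjusted p = 0.00309) and CCN2, a matricellular growth factor gene, by 2.44 (SE 0.24, limma adjusted p = 4.41e-05). TGFBI, a secreted matrix protein gene, had a difference of -3.82 there (SE 0.41, limma adjusted p = 0.000112). ID1, an inhibitor of differentiation, was lower in strong bone lines (-1.80, SE 0.31, limma adjusted p = 0.00233) and higher in strong lung lines (1.96, SE 0.31, limma adjusted p = 0.00134). No gene of these 3 lists was called between hyper-ploid and modal-ploid sublines. CCN2 was called higher in strong lung lines too, by 1.44 (limma adjusted p = 0.002). IL11 and CCN2 are known as bone metastasis genes from earlier work on sublines of MDA-MB-231, so their direction in bone lines is not independent evidence here.

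Over the 19 arrays, with each array set's mean removed, MATN2, EFEMP1 and LTBP3 spread most among the members, with SDs of 1.42, 1.17 and 0.994 on the log2 scale. These are the 99.5th, 99th and 97.7th percentiles of all genes. MATN2 was above the floor on 11 and LTBP3 on 12 of the 19 arrays, so their spread and correlations are set partly by background. EFEMP1 and MATN2 were correlated with r = 0.792, and MATN2 and LTBP1 with r = -0.733, values that share arrays and scaling and carry no p. Outside the set, the genes most like EFEMP1 were SMCHD1 (r = 0.936), FECH (r = 0.923) and CYBRD1 (r = 0.913). Those most like MATN2 were SPINK4 (r = 0.915), ATP9B (r = 0.893) and CEMIP (r = 0.887). LTBP3 was most like NMU (r = 0.822), HMBOX1 (r = 0.820) and GFAP (r = 0.815).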

How the data were processed

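Gene expression was measured on oligonucleotide arrays of 22283 probe sets. The authors deposited linear ratios, from 0.00115 to 361; the software that made them is not given in the sources used here. From the values, each ratio was read as a signal divided by an array factor and a probe set divisor, and signals in steps of 0.1 were recovered for 22259 probe sets (99.9%; a shuffled control gave 0% and 0.0667% in the 2 sets). The 24 others were left out. The divisor of the second set may rest on arrays not used here.

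Signals were scaled to a common median and put on a log2(signal + 16) scale. Probe sets above the 40th percentile on at least 2 arrays were kept (16316), and the set with the highest mean stood for each gene. Gene symbols came from the platform annotation, in which 19060 probe sets have 1 symbol. The 14 strong and weak lines were fitted with limma 3.58.1 (R 4.3.3), 1 mean per group, and the 4 ploidy arrays with line of origin as a block. P-values were adjusted by Benjamini-Hochberg over 9554 genes, with a threshold of 0.05. The procedure was tested on simulated data.

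The members and lists were chosen with earlier results of these data known. All members are named. Up to 4 called genes per list with the largest differences, and the 3 most correlated genes of the most variable members, could be named. TGFB1, LTBP4 and the lung value of CCN2 were added after their values were seen. Alternatives were pseudocounts of 1 and 64, other filters, quantile normalisation, the deposited ratios, the mean over probe sets, leaving out each line, fits over 7 lines alone and, chosen after seeing the data, a common trimmed mean and every probe set by itself.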

Additional observations from a re-analysis of the deposited data

Results flagged for a closer look

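The strong against weak difference was not the same in bone and lung lines for 5 of the 10 genes, by the interaction term of the limma fit. The difference between organs was 4.78 log2 units for EFEMP1 and 5.12 for MATN2, higher for bone. It was -2.12 for LTBP1, -1.17 for LTBP2 and -3.41 for LTBP3, lower for bone. None of the 20 groups of 4 lines (10 genes, strong bone and strong lung) held a line far from the other 3 by Dixon's criterion.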

How the results depend on the processing

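Over all alternatives, 640 of 682 member values kept their direction and their side of the threshold, 9 moved past the threshold, 17 fell short of it and 16 changed sign. Calls of EFEMP1 and MATN2 in both organs, LTBP2 in bone and LTBP1 in lung held in all 17 alternatives. LTBP3 was called in 5 of 17 for bone and 2 of 17 for lung. Between 3 and 5 members were called for bone, 3 and 4 for lung, 4 and 5 for the interaction, and 0 for ploidy. The sign changes were of differences not called in the reported fit. For EFEMP2 they were 0.0445 (without 2296) and 0.00364 (without 1833) for bone, -0.0399 (mean over probe sets), -0.180 (without SCP21) and -0.0205 (without 4142) for lung, and 0.134 (without SCP21) for the interaction. For lung they were -0.0736 (quantile) and -0.0806 (without 4180) for FBN2, 0.0857, 0.261 and 0.170 (without SCP21, SCP26 or 4173) for FBLN5 and 0.0702 (without SCP6) for LTBP2. With each line left out in turn, EFEMP2 ranged from -0.109 to 0.0445 for bone, from -0.180 to 0.296 for lung and from -0.342 to 0.134 for the interaction, and for lung FBN2 ranged from -0.0806 to 0.333, FBLN5 from -0.694 to 0.261 and LTBP2 from -0.369 to 0.0702. In single ploidy pairs they were -0.69 for EFEMP1 and 0.0644 for LTBP3 (1833), and -0.0522 for FBLN1 and -0.43 for FBN1 (4175). Genes called with a line left out ranged from 545 to 1258 for bone, from 505 to 1004 for lung and from 784 to 1405 for the interaction. The lowest bone counts were 567, 545 and 618 without 2293, 2295 or 2296, and the lowest lung counts 537 and 505 without 4173 or 4175. The lung fit over 7 lines alone called 446. For ploidy, 0 genes were called with a pseudocount of 1, no filter, quantile normalisation, deposited ratios, the trimmed mean, no replicate block or the 4175 pair alone, and 5 with the filter on 10 arrays, by limma, with 503 genes at an unadjusted p under 0.05 in the reported fit. The share of calls that were higher moved from 58.4% to 49.7% (quantile) and 47.4% (trimmed mean) for bone, from 38% to 48.6% and 47.5% for lung, and from 59.3% to 49.1% and 48.8% for the interaction. Leaving out SCP6 moved it further for lung, to 56.8% (356 of 627 calls), so that most lung calls were then higher, and to 48.7% for the interaction. The cause was not tested. The number of arrays, and for FBLN5, FBN2, LTBP3 and MATN2 the signal over the floor, limit the precision.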

Other observations

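Of the 6 genes most like EFEMP1 or MATN2, 3 are on chromosome 18 in RefSeq. They are SMCHD1 and FECH, the 2 genes closest to EFEMP1, and ATP9B, the second closest to MATN2. CYBRD1 is on chromosome 2, SPINK4, the closest to MATN2, on chromosome 9 and CEMIP on chromosome 15. This was noticed after the values were seen, and each chromosome was then counted. Of 140 tested genes on chromosome 18, 45 were called higher and 2 lower in strong than in weak bone lines. That is 32.1% higher, against 6.66% of all genes, and the highest share of any chromosome. In the lung comparison 2 were higher and 34 lower, or 24.3% lower against 5.51% of all genes, again the highest share. The median difference of the chromosome was 0.546 for bone and -0.356 for lung. Chromosome 21 came next, with 22% of 109 genes higher for bone and 18.3% lower for lung. Chromosome 2, which holds EFEMP1 and LTBP1, had 11.3% of 603 genes higher for bone and 8.13% lower for lung, with medians of 0.203 and -0.218. LTBP1 went against these medians, with differences of -0.40 for bone and 1.72 for lung. DNA copy number was not measured in the data used here, and its part in these values was not tested.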
